A study of Danio rerio with 6 samples.

Results

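The genes examined here encode the enzymes of mitochondrial and peroxisomal fatty acid β-oxidation and the carnitine shuttle that feeds it. They were chosen by symbol, and 31 of 31 listed symbols had a row among the 27335 genes of the deposited expression table. Whole larvae at 5 dpf were compared between maternal zygotic (MZ) *tafazzin* mutants and wild-type larvae, with 3 pools of 25 larvae per genotype and 1 RNA-seq library per pool. The mutants were homozygous for a CRISPR/Cas9 frameshift allele in *tafazzin* and came from homozygous mutant mothers, so they lacked wild-type transcript from the egg as well as from their own genome. Wild-type larvae were homozygous for the wild-type allele, and no larva of either genotype was treated. The study describes pools from the same clutch in its methods whereas its results section has mutants and wild-type siblings incrossed apart, so the effects of parents and of genotype cannot be told apart. Each value below is thus an average over 25 larvae and all their tissues.

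In β-oxidation, fatty acids are shortened step by step to acetyl-CoA. Long chains enter mitochondria as carnitine esters: a carnitine palmitoyltransferase of the CPT1 family makes the ester at the outer membrane, a translocase carries it across the inner membrane, and CPT2 turns it back into acyl-CoA in the matrix. An acyl-CoA dehydrogenase, an enoyl-CoA hydratase, a hydroxyacyl-CoA dehydrogenase and a thiolase then act in turn, and the electrons taken by the dehydrogenases reach the respiratory chain through the electron transfer flavoprotein. Peroxisomes run a related pathway, with oxidases at the dehydrogenase step, for very long and branched chains. Liver, heart, skeletal muscle and kidney are known for high β-oxidation. Tafazzin remodels cardiolipin, the phospholipid of the inner mitochondrial membrane in which these carriers and the respiratory chain sit.

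The authors deposited FPKM, a fragment count scaled by exon length and library size, for each gene in each pool. Pools are named by the number of their column, from 0 to 2. The *tafazzin* transcript, listed as *taz*, was at 6.09, 4.58 and 3.84 FPKM in the mutant pools, against 12.3, 12 and 8.53 FPKM in the wild-type pools, which matches the labels. No source used here gives read numbers, but the step that 1 fragment makes in low genes placed all pools between 0.834 and 1.28 times the depth of mutant pool 0. Along the first principal component, with 36.1% of the variance, the mutant pools lay at 16.4 to 35.2, wild-type pools 0 and 1 at -29 and -32, and wild-type pool 2 at -10.5, nearest to the mutants. A gene entered the test if its average over all 6 pools reached 0.5 FPKM, and 21843 genes did. They were tested with limma on log2(FPKM + 1), a scale that understates the change of low genes, with Benjamini-Hochberg adjustment over all of them. By this test 199 genes passed an adjusted p of 0.05, which is 0.911% of the genes tested, and 15 to 422 did with 1 pool left out, the most without wild-type pool 2. The labels do not tell whether each pool had parents of its own, so the p-values here reflect only how these pools vary.

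The β-oxidation genes were mostly well expressed. Of the 31 genes 30 passed the filter on low values, with mean levels over all pools between 5.44 FPKM for *decr2* and 63.3 FPKM for *acadm*. The exception was *acadsb*, the dehydrogenase for short branched chains, which lies on an unplaced scaffold and was at 0, 0.339 and 0.223 FPKM in the mutant pools and 0.241, 0.494 and 1.02 FPKM in the wild-type pools. Its mean of 0.386 FPKM kept it out of the test. In order of mean level, *acadm* was followed by *etfa* at 45.3, *acat1* at 41.8, *etfb* at 41.2, *acadvl* at 41.1 and *hadhb* at 37.5 FPKM, all of mitochondrial enzymes. Neighbours in this order from *etfa* to *acadvl* differed by less than the spread between pools. The 5 genes grouped as peroxisomal oxidation had means from 5.56 FPKM for *hacl1* to 10.6 FPKM for *hsd17b4*. The 30 placed genes were spread over 15 chromosomes, and none lay on chromosome 23, which carries *tafazzin*.

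**Figure D1:**
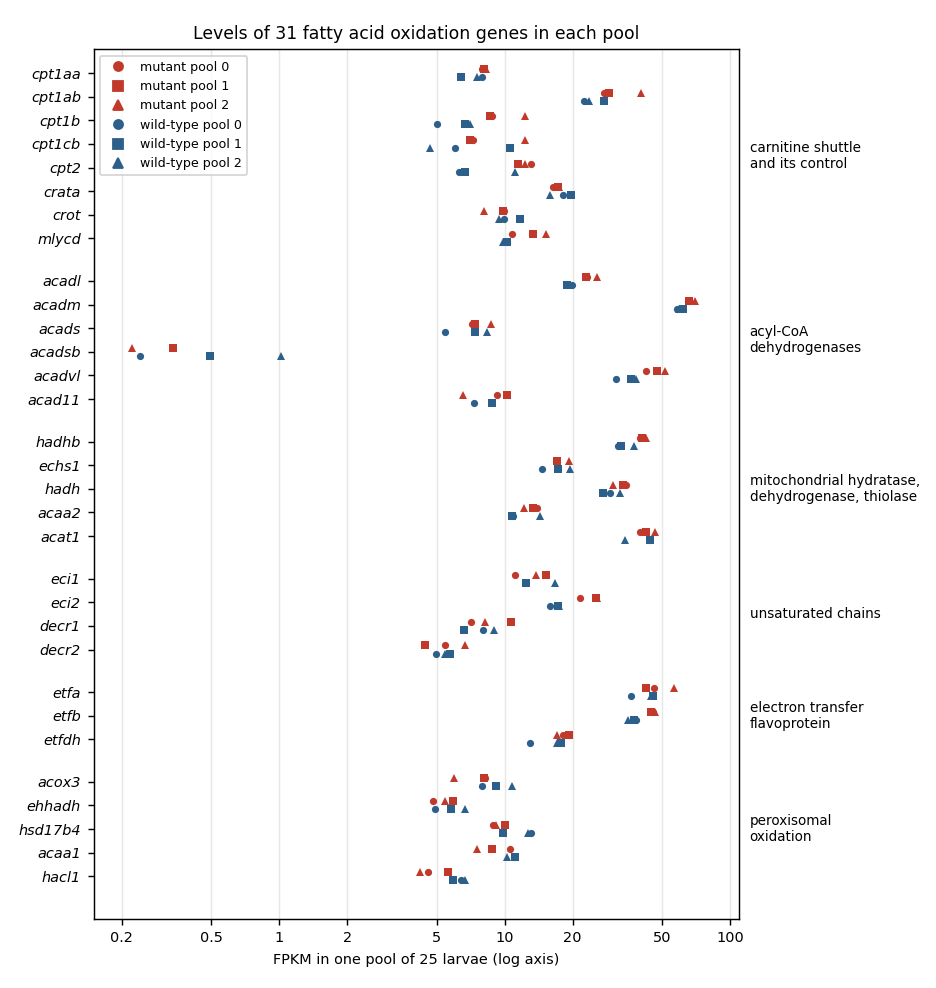
FPKM of each of the 31 genes (rows, grouped by role) in each of the 6 pools, on a log axis, with mutant pools in red and wild-type pools in blue. Mutant pool 0 of *acadsb* is listed at 0 and is not drawn, and the mutant pools of *acadvl*, *eci2* and *etfb* all lie to the right of the wild-type pools, while those of *hacl1* all lie to the left.

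No β-oxidation gene passed the test over all genes, yet the direction of the differences split by role. Among the 30 genes tested, 22 (73.3%) had a higher and 8 a lower fitted level in the mutants, against 50.4% higher over all genes tested. All 5 genes grouped here as peroxisomal oxidation enzymes were among the 8. This group is not a full list of peroxisomal enzymes, so the split is not one between organelles. For example, *crot* and *decr2*, also of peroxisomal enzymes, were placed in other role groups, at log2 fold changes of -0.14 and 0.02. Where the products of the other genes lie, such as *eci2* at 0.49 and *acad11* at 0.04, was not examined. In whole larvae, fewer cells of a type and less RNA per cell cannot be told apart. By limma 0 of 30 genes had an adjusted p under 0.05, against 0.696% of all genes tested called higher and 0.215% called lower. At an unadjusted p under 0.05, 9 were higher and 2 lower, or 30% of the 30 genes on the higher side, against 9.88% higher and 6.4% lower over all genes tested. For 11 genes every mutant pool lay above every wild-type pool, and for 1 gene, *hacl1*, every mutant pool lay below. Such separation on the higher side held for 36.7% of the 30 genes against 11.9% of all genes tested, and on the lower side for 3.33% against 10.5%. The median log2 fold change of the 30 genes was 0.14, against 0.002 over all genes tested. For a single gene the exact permutation test over the 6 pools (two-sided) cannot go below p = 0.1, the value of each separated gene.

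**Figure D2:**
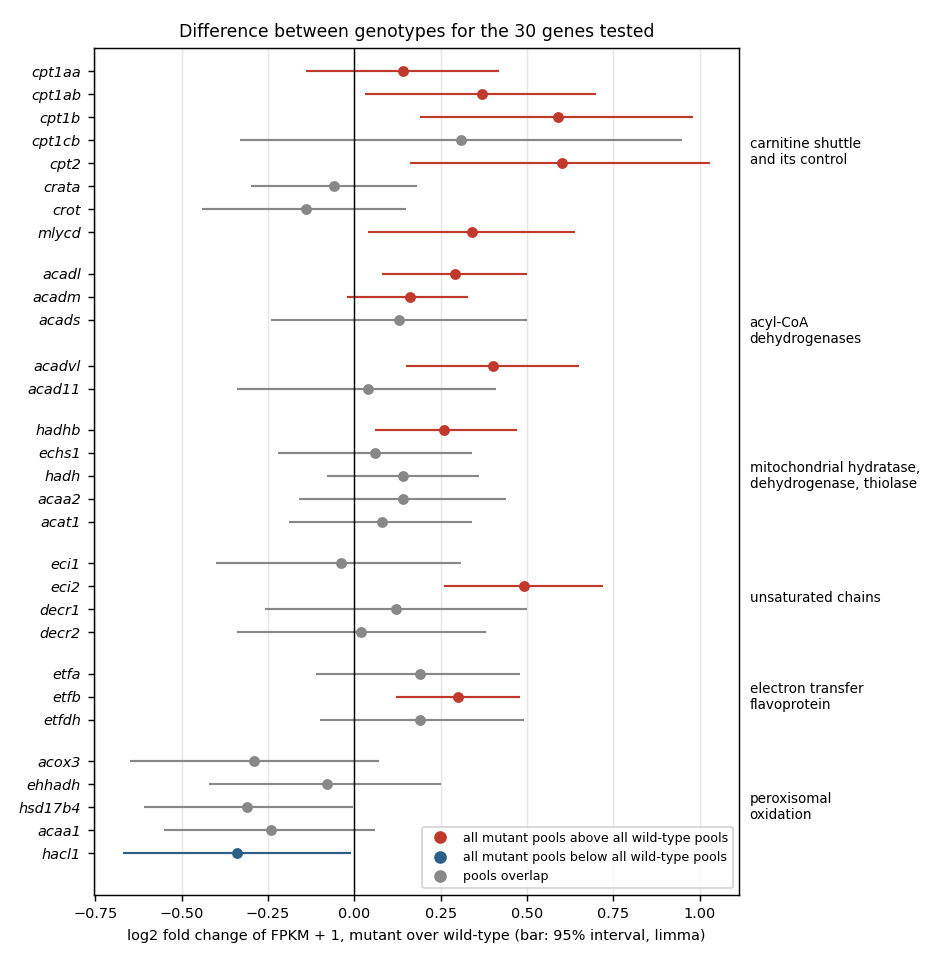
Log2 fold change of FPKM + 1, mutant over wild-type, for the 30 genes tested (points) with the 95% interval from limma (bars), in red where all mutant pools lay above all wild-type pools, in blue where all lay below and in grey where pools overlapped. The largest values are 0.6 for *cpt2* and 0.59 for *cpt1b*. At the bottom, the points of the 5 genes of the peroxisomal group all lie below 0, with intervals that cross 0 for *acox3*, *ehhadh* and *acaa1*.

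In the carnitine shuttle the enzymes for long chains had higher means in the mutants, while those for short and medium chains did not. The most abundant CPT1 gene was *cpt1ab*, of the liver-type pair, at 27.7, 29.1 and 40.2 FPKM in mutant pools and 22.4, 27.6 and 23.7 FPKM in wild-type pools. The genotypes did not overlap, but the nearest pools were only 0.121 FPKM apart and mutant pool 2 stood well above the rest. Its log2 fold change was 0.37 (SE 0.15, limma adjusted p = 0.264). The muscle-type gene *cpt1b*, on chromosome 18 of GRCz11 from 8346913 to 8367561 as the deposited table gives it, was at 8.74, 8.62 and 12.3 FPKM in mutant pools and 5.01, 6.66 and 6.99 FPKM in wild-type pools. Mutant pools were all higher, with a mean ratio of 1.59 and a log2 fold change of 0.59 (SE 0.17, limma adjusted p = 0.148).

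The inner membrane enzyme *cpt2*, on chromosome 8 from 21137454 to 21142599, had the largest log2 fold change of the 30 genes, 0.6 (SE 0.19, limma adjusted p = 0.174). Its FPKM was 13.1, 11.4 and 12.3 in mutant pools and 6.26, 6.68 and 11.1 in wild-type pools. Wild-type pool 2 lay just below the mutants and far above the other wild-type pools. Without that pool the log2 fold change of *cpt2* was 0.83 and it passed (limma adjusted p = 0.0278), the only one of the 30 genes to pass with any 1 pool left out. With any other pool left out its adjusted p from limma was 0.271 to 0.405.

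The liver-type paralog *cpt1aa* was close to level, at 7.96, 8.12 and 8.26 FPKM in mutant pools and 7.94, 6.43 and 7.56 FPKM in wild-type pools (log2 fold change 0.14, 95% interval -0.14 to 0.42). Its genotypes were 0.0188 FPKM apart, and they overlapped after quantile or median scaling. The paralog *cpt1cb*, whose mammalian counterpart is mainly a brain protein, was at 7.27, 7 and 12.3 FPKM in mutant pools and 6.04, 10.6 and 4.67 FPKM in wild-type pools, with wide overlap. Summed over the 4 paralogs, CPT1 transcript was at 51.7, 52.8 and 73 FPKM in mutant pools and 41.4, 51.3 and 42.9 FPKM in wild-type pools. Of this sum *cpt1ab* held a mean of 54.6% in mutants and 54.4% in wild-type, and *cpt1b* 16.7% in mutants and 13.8% in wild-type. The ratio of *cpt1ab* to *cpt1b* was 3.17, 3.37 and 3.27 in mutant pools and 4.48, 4.15 and 3.39 in wild-type pools, lower in every mutant pool, with wild-type pool 2 close to the mutants.

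Malonyl-CoA blocks CPT1, and *mlycd* encodes the decarboxylase that removes it. The *mlycd* transcript was at 10.8, 13.3 and 15.3 FPKM in mutant pools and 10.2, 10.2 and 9.87 FPKM in wild-type pools, where the spread was small (log2 fold change 0.34, SE 0.13, limma adjusted p = 0.254). The carnitine acetyltransferase gene *crata* and the peroxisomal carnitine octanoyltransferase gene *crot*, which handle short and medium chains, overlapped between genotypes. Mean *crata* was 17 ± 0.549 FPKM in mutants and 17.8 ± 1.87 FPKM in wild-type, and mean *crot* 9.28 ± 1.03 FPKM in mutants and 10.4 ± 1.2 FPKM in wild-type (SD, n = 3 pools each). Their 95% intervals on the log2 scale were -0.3 to 0.18 for *crata* and -0.44 to 0.15 for *crot*.

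**Figure D3:**
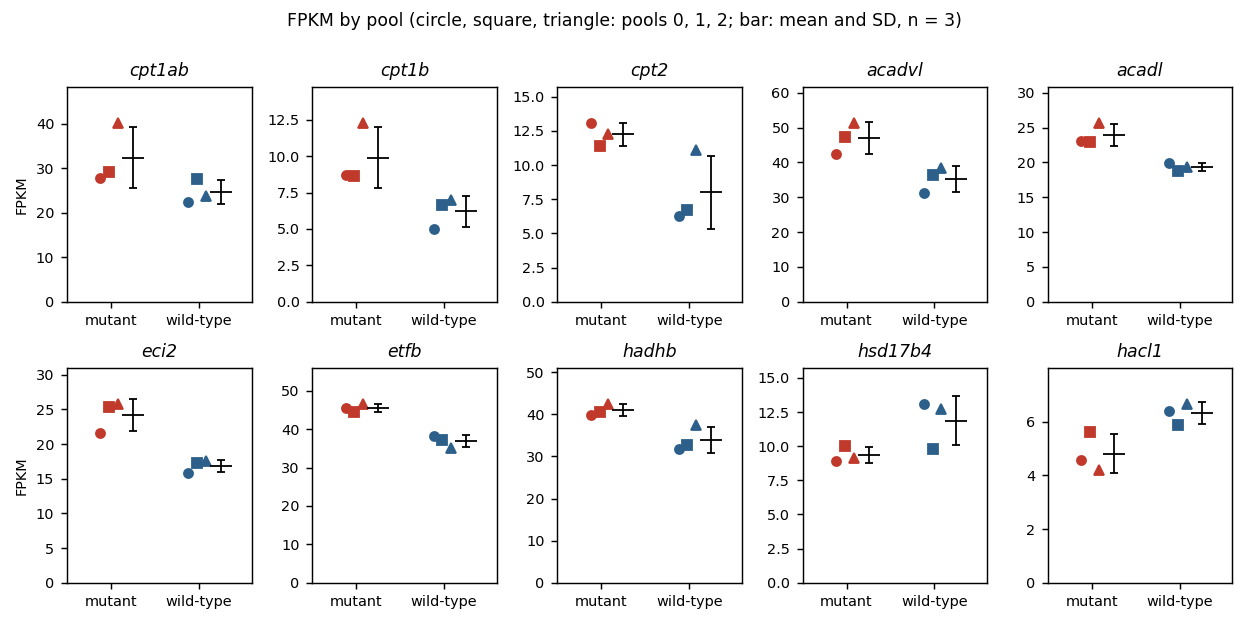
FPKM of 10 genes in each mutant (red) and wild-type (blue) pool, with the mean and SD of 3 pools beside the points; axes start at 0. Wild-type pool 2 (triangle) of *cpt2* sits at 11.1 FPKM, near the mutants, and mutant pool 2 (triangle) is the highest pool for *cpt1ab*, *cpt1b* and *acadvl*.

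The acyl-CoA dehydrogenases differ in the chain length they accept, and all 5 tested had a positive log2 fold change, from 0.04 for *acad11* to 0.4 for *acadvl*. The very long-chain enzyme gene *acadvl*, on chromosome 7 from 20298436 to 20332607, was at 42.3, 47.2 and 51.4 FPKM in mutant pools and 31.1, 36.5 and 38.3 FPKM in wild-type pools. All mutant pools were higher (log2 fold change 0.4, SE 0.11, limma adjusted p = 0.125). The long-chain gene *acadl* was at 23.1, 23 and 25.7 FPKM in mutant pools and 19.9, 18.8 and 19.3 FPKM in wild-type pools, again without overlap (log2 fold change 0.29, SE 0.09, limma adjusted p = 0.167). The medium-chain gene *acadm*, the most abundant gene of the pathway, was at 65, 65.6 and 69.9 FPKM in mutant pools and 58.3, 61.6 and 59.3 FPKM in wild-type pools. It also separated by genotype, but with a mean ratio of only 1.12 (log2 fold change 0.16, limma adjusted p = 0.348).

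The short-chain gene *acads* overlapped, at 7.17, 7.4 and 8.67 FPKM in mutant pools and 5.46, 7.42 and 8.37 FPKM in wild-type pools. The gene *acad11*, of an acyl-CoA dehydrogenase for long chains in mammals, overlapped as well, at a mean of 8.65 ± 1.88 FPKM in mutants and 8.31 ± 0.847 FPKM in wild-type (SD, n = 3 pools each). It shares its locus of the table with the chemokine receptor gene *ackr4b*, so fragments may be divided between them. Their 95% intervals on the log2 scale were wide, -0.24 to 0.5 for *acads* and -0.34 to 0.41 for *acad11*. Differences between the fold changes of these genes were not tested.

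Of the genes for the later steps in the matrix, only *hadhb* separated by genotype. It encodes the β subunit of the trifunctional protein, which carries the thiolase for long chains, and was at 39.8, 40.6 and 42.5 FPKM in mutant pools and 31.8, 32.7 and 37.5 FPKM in wild-type pools. Wild-type pool 2 was again the nearest to the mutants (log2 fold change 0.26, SE 0.09, limma adjusted p = 0.204). The hydratase gene *echs1* was at 16.9, 17.1 and 19.3 FPKM in mutant pools and 14.6, 17.2 and 19.5 FPKM in wild-type pools. The hydroxyacyl-CoA dehydrogenase gene *hadh* was at 34.5, 33.4 and 30.3 FPKM in mutant pools and 29.2, 27.3 and 32.4 FPKM in wild-type pools. Both overlapped, with mean ratios of 1.04 for *echs1* and 1.1 for *hadh*. The thiolase gene *acaa2* was at a mean of 13.2 ± 0.861 FPKM in mutants and 12 ± 2.04 FPKM in wild-type (SD, n = 3 pools each). The most abundant gene of these steps, *acat1*, whose thiolase acts on acetoacetyl-CoA, was at 39.9, 42.2 and 46.2 FPKM in mutant pools and 44.1, 44.1 and 34 FPKM in wild-type pools. Its genotypes overlapped, and wild-type pool 2 was the lowest pool. All 5 genes of these steps had a positive log2 fold change, from 0.06 to 0.26, although that of *acat1* was -0.003 after quantile scaling.

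Unsaturated fatty acids need isomerases and a reductase that move or remove double bonds. The isomerase gene *eci2*, on chromosome 24 from 2950092 to 2972040, had the smallest p of all the β-oxidation genes. Its FPKM was 21.6, 25.3 and 25.8 in mutant pools and 15.9, 17.3 and 17.5 in wild-type pools, and the genotypes stood 4.1 FPKM apart. The mean ratio was 1.43 and the log2 fold change 0.49 (SE 0.1, 95% interval 0.26 to 0.72), and the adjusted p of 0.0673 from limma missed the threshold. Leaving out each pool in turn gave values of 0.44 to 0.57 and limma adjusted p-values of 0.0706 to 0.219. Its locus in the table also holds the lipid droplet gene *cidea*, which was at 1.08 FPKM or less in mutant pools and 1.42 FPKM or less in wild-type pools.

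The second isomerase gene, *eci1*, was nearly level. It was at 11.1, 15.3 and 13.7 FPKM in mutant pools and 12.3, 12.4 and 16.8 FPKM in wild-type pools (log2 fold change -0.04, 95% interval -0.4 to 0.31). The ratio of *eci2* to *eci1* was 1.96, 1.65 and 1.88 in mutant pools and 1.29, 1.4 and 1.05 in wild-type pools, which did not overlap. The dienoyl-CoA reductase genes *decr1*, of mitochondria, and *decr2*, of peroxisomes, overlapped. Mean *decr1* was 8.66 ± 1.86 FPKM in mutants and 7.85 ± 1.16 FPKM in wild-type, and mean *decr2* 5.51 ± 1.1 FPKM in mutants and 5.36 ± 0.378 FPKM in wild-type (SD, n = 3 pools each).

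The electron transfer flavoprotein takes electrons from the acyl-CoA dehydrogenases, and its dehydrogenase passes them to ubiquinone. The β subunit gene *etfb* was at 45.4, 44.5 and 46.6 FPKM in mutants and 38.1, 37.3 and 35.2 FPKM in wild-type. The genotypes did not overlap, with a log2 fold change of 0.3 (SE 0.08, limma adjusted p = 0.118). The α subunit gene *etfa* was at 46, 42.4 and 56.6 FPKM in mutant pools and 36.5, 45.7 and 44.4 FPKM in wild-type pools, and *etfdh* at 18.1, 19.2 and 17 FPKM in mutant pools and 12.9, 17.7 and 17 FPKM in wild-type pools. In both, wild-type pool 0 was low and the other pools overlapped (log2 fold change 0.19 for each). The ratio of *etfa* to *etfb* was 1.01, 0.952 and 1.22 in mutant pools and 0.957, 1.23 and 1.26 in wild-type pools, so the subunits of the heterodimer were at similar levels in either genotype.

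All 5 genes of the peroxisomal group had lower means in the mutants, and none passed. The gene *hacl1*, whose product cleaves 2-hydroxyacyl-CoA in the α-oxidation of branched chains, lies on chromosome 16 from 20167844 to 20194379. It was at 4.57, 5.62 and 4.21 FPKM in mutant pools and 6.41, 5.87 and 6.66 FPKM in wild-type pools, the only one of the 31 genes with every mutant pool below every wild-type pool. Its log2 fold change was -0.34 (SE 0.14, limma adjusted p = 0.286). The gene *hsd17b4*, which encodes the D-bifunctional protein, was at 8.91, 9.99 and 9.15 FPKM in mutant pools and 13.1, 9.82 and 12.7 FPKM in wild-type pools. Here wild-type pool 1 lay among the mutants and the others stood above (log2 fold change -0.31, SE 0.13, limma adjusted p = 0.299).

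The branched-chain oxidase gene *acox3* was at 8.2, 8.1 and 5.96 FPKM in mutant pools and 7.96, 9.19 and 10.8 FPKM in wild-type pools. The peroxisomal thiolase gene *acaa1* was at 10.6, 8.81 and 7.55 FPKM in mutant pools and 11, 11.1 and 10.2 FPKM in wild-type pools. In each of these a single pool bridged the genotypes, and mutant pool 2 was the lowest of all (log2 fold change -0.29 for *acox3* and -0.24 for *acaa1*). The L-bifunctional gene *ehhadh* was nearly level, at 4.79, 5.88 and 5.45 FPKM in mutant pools and 4.91, 5.77 and 6.65 FPKM in wild-type pools (log2 fold change -0.08, 95% interval -0.42 to 0.25). The median of the 5 genes was -0.29, and it was -0.35 to -0.16 with any 1 pool left out, the nearest to 0 being the value without mutant pool 2. All 5 stayed negative under each scaling, pseudocount and filter tried, and 4 of 5 without wild-type pool 2, where *ehhadh* was at 0.01.

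Summed by role, the mutant pools lay above the wild-type pools for the carnitine shuttle, the dehydrogenases, the later matrix steps and the electron transfer flavoprotein, and below them for the peroxisomal group. The acyl-CoA dehydrogenases summed to 147, 154 and 162 FPKM in mutant pools and 122, 134 and 135 FPKM in wild-type pools. The 3 genes of the electron transfer flavoprotein summed to 110, 106 and 120 FPKM in mutant pools and 87.4, 101 and 96.6 FPKM in wild-type pools. The peroxisomal genes summed to 37, 38.4 and 32.3 FPKM in mutant pools and 43.3, 41.7 and 46.9 FPKM in wild-type pools. The mutant sum was thus 81.7% of wild-type for the peroxisomal group, against 117% for the 26 other genes together. These other genes include *crot* and *decr2*, of peroxisomal enzymes. The ratio of the peroxisomal sum to the other sum was 0.0675, 0.0677 and 0.0527 in mutant pools and 0.0928, 0.0821 and 0.0924 in wild-type pools. These sums are a description of the listed genes, and a sum follows its most abundant members.

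**Figure D4:**
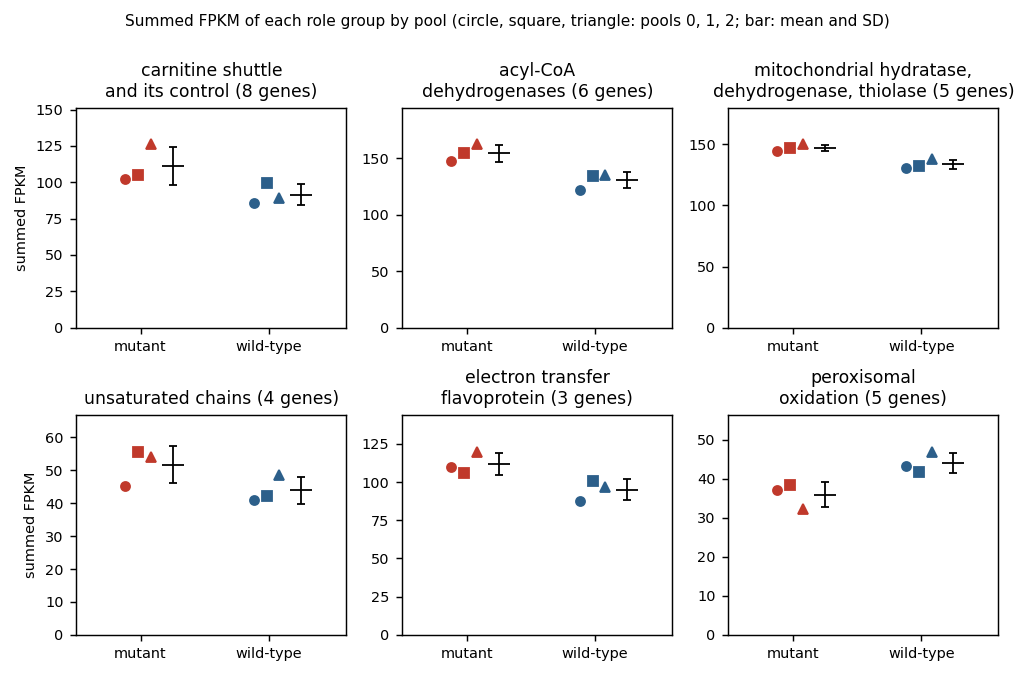
FPKM summed over the genes of each role in each mutant (red) and wild-type (blue) pool, with the mean and SD of 3 pools beside the points; axes start at 0. Mutant pools lie above wild-type pools in 4 panels, overlap for unsaturated chains, and lie below in the peroxisomal panel at 32.3 to 38.4 FPKM against 41.7 to 46.9 FPKM.

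The pools within a genotype did not contribute alike. Mutant pool 2 was the highest mutant pool for 17 of the 30 genes, or 56.7%, against 35.8% of all genes tested. Wild-type pool 0 was the lowest wild-type pool for 16 of the 30, or 53.3%, against 39.3% of all genes tested. At an unadjusted p under 0.05, 6 of the 30 genes were higher without mutant pool 2 and 5 without wild-type pool 0, against 9 with all pools. None was lower without mutant pool 2, wild-type pool 0 or wild-type pool 2, against 2 with all pools. Leaving a pool out changes the test for every gene. Over all genes, 46 passed without mutant pool 2, 15 without wild-type pool 0 and 422 without wild-type pool 2, against 199 with all pools. The share of all genes at the unadjusted p is not given for these settings, so the member counts cannot be set against it. With any 1 pool left out, 11 to 14 of the 30 genes were separated on the higher side, while the share over all genes tested was then 14.8% to 20.7%, against 11.9% with all pools.

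Among related genes outside the list, those nearest to the mitochondrial pathway had the largest median log2 fold change. For 9 further β-oxidation enzymes and carriers it was 0.3, with 0 passing and 4 higher at an unadjusted p under 0.05. The α subunit of the trifunctional protein, the partner of *hadhb*, has a pair of genes, of which *hadhab* was at 25, 27.3 and 29 FPKM in mutant pools and 14.8, 17.4 and 21.6 FPKM in wild-type pools (limma adjusted p = 0.0902). The hydroxyacyl-CoA dehydrogenase gene *hsd17b10* was at 27.2, 27.9 and 35.6 FPKM in mutant pools and 17.8, 23.6 and 23.5 FPKM in wild-type pools. Neither *hadhab* nor *hsd17b10* overlapped between genotypes. Further genes were picked after the values were seen, for their place in the pathway. The other α subunit gene, *hadhaa*, was at 10.4, 10.4 and 8.79 FPKM in mutant pools and 5.96, 7.25 and 9.15 FPKM in wild-type pools. Its genotypes overlapped (limma adjusted p = 0.285). The carnitine-acylcarnitine translocase gene *slc25a20* was at 29.6, 29.7 and 31.4 FPKM in mutant pools and 28, 22.2 and 27.3 FPKM in wild-type pools, without overlap. Its adjusted p from limma was 0.336. Lower instead was *cratb*, at 4.59, 4.42 and 3.05 FPKM in mutant pools and 4.7, 5.16 and 5.4 FPKM in wild-type pools. This second carnitine acetyltransferase gene did not overlap either (limma adjusted p = 0.427). Of the 9 genes 3 were separated higher and 1 lower, against 11.9% and 10.5% of all genes tested.

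Genes that activate fatty acids or control the pathway gave differences in both directions. Over all genes tested, an unadjusted p under 0.05 was reached by 9.88% on the higher side and 6.4% on the lower. Of 15 acyl-CoA synthetase genes 0 passed, and an unadjusted p under 0.05 was reached by 5 on the higher side and 2 on the lower. Among them *slc27a1b*, a fatty acid transport protein, was at 11.4, 10.3 and 13 FPKM in mutant pools and 6.54, 5.17 and 8.02 FPKM in wild-type pools (limma adjusted p = 0.0746). Of 20 genes of PPAR receptors, their partners and coactivators 0 passed, with 5 higher and 1 lower at that unadjusted p. The nearest were *esrra*, an orphan receptor of energy metabolism, at 17.7, 20.8 and 20.1 FPKM in mutant pools and 12.7, 13.3 and 14.7 FPKM in wild-type pools (limma adjusted p = 0.0714), and *pparda*, at a mean of 6.13 FPKM in mutants and 3.87 FPKM in wild-type (limma adjusted p = 0.111). Of 12 genes of malonyl-CoA synthesis and AMP-activated kinase, which controls it, 0 passed, with 3 higher and 2 lower at that p. The kinase subunit genes pointed both ways, *prkaa1* at a log2 fold change of 0.37 and *prkab1a* at -0.33. Of 13 acyl-CoA thioesterase genes 0 passed, with 1 higher, *acot7*, and 1 lower, *acot19*, at that p.

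Pathways that share enzymes or cofactors with β-oxidation gave 1 gene that passed. Of 22 genes of branched-chain amino acid and propionyl-CoA oxidation 0 passed, and an unadjusted p under 0.05 was reached by 4 on the higher side and 2 on the lower. Of these *hibadhb*, of valine breakdown, came nearest (log2 fold change 0.58, limma adjusted p = 0.0613). The 4 on the higher side include *hsd17b10*, which was also counted among the 9 further β-oxidation enzymes and carriers. Of 11 genes of ketone body metabolism and monocarboxylate transport 1 rose, *slc16a3*, which encodes a lactate and pyruvate transporter and not a ketone body enzyme. It was at 15.1, 16.8 and 20.3 FPKM in mutant pools and 8.32, 7.5 and 9.4 FPKM in wild-type pools (log2 fold change 0.96, SE 0.14, limma adjusted p = 0.0233). With a pool left out it passed only when that pool was wild-type pool 2, with limma adjusted p-values of 0.0244 to 0.0997 over the 6 ways and log2 fold changes of 0.85 to 1.06. In the same list *hmgcs1*, the cytosolic synthase of the cholesterol pathway, had an adjusted p of 0.0569 from limma. Of 13 genes of carnitine synthesis and uptake 0 passed, with 1 higher at an unadjusted p under 0.05, *bbox1*, and 2 lower, *aldh9a1a.2* and *aldh9a1a.1*. Of these *aldh9a1a.2* had the smallest p but was near the floor, at means of 0.476 FPKM in mutants and 1.29 FPKM in wild-type. Its abundant paralog *aldh9a1a.1* was at means of 122 FPKM in mutants and 151 FPKM in wild-type, with overlap.

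Other genes of the peroxisome had median log2 fold changes near 0. Of 17 peroxin genes, which build the organelle, 0 passed, and their median log2 fold change was -0.03. The 1 peroxin gene at an unadjusted p under 0.05 was *pex16*, at 5.25, 4.39 and 6.68 FPKM in mutant pools and 2.5, 2.71 and 3.8 FPKM in wild-type pools. Of 18 genes of peroxisomal transporters and other lipid enzymes 0 passed, with a median of 0.05, and they summed to 259 to 273 FPKM in mutant pools and 263 to 271 FPKM in wild-type pools. The transporter gene *abcd3b* was the only one at an unadjusted p under 0.05, at 3.87, 4.49 and 5.65 FPKM in mutant pools and 3.78, 1.91 and 2.45 FPKM in wild-type pools. A test of the difference between these lists and the 5 genes was not run.

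Markers of 10 tissues were followed beside these results, and no marker was at 0 in every pool. Of the tissues rich in β-oxidation, the 12 heart markers summed to 192 to 213 FPKM in mutant pools and 189 to 225 FPKM in wild-type pools, and the 16 skeletal muscle markers to 30300 to 31100 FPKM in mutant pools and 29600 to 37200 FPKM in wild-type pools, both with overlap. The 10 kidney tubule markers also overlapped, at 110 to 122 FPKM in mutant pools and 119 to 131 FPKM in wild-type pools. The 16 hepatocyte markers summed to 4540 to 4660 FPKM in mutant pools and 3970 to 4390 FPKM in wild-type pools, without overlap, while 7 of 16 had a positive log2 fold change and the median was -0.04. In that list the apolipoprotein B gene *apobb.1* rose, with a mean of 971 ± 75.8 FPKM in mutants and 644 ± 45.5 FPKM in wild-type (SD, n = 3 pools each; limma adjusted p = 0.0405), and its gap made up most of that between the hepatocyte sums. Their part in the results above was not tested.

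The other marker lists moved in both directions. Exocrine pancreas markers were lower, at a sum of 9440 to 10100 FPKM in mutant pools and 12600 to 13900 FPKM in wild-type pools, with 12 of 13 below 0 and *ela3l* and *amy2a*, genes of digestive enzymes, passing. Epidermis markers summed to 3770 to 4910 FPKM in mutant pools and 5450 to 7330 FPKM in wild-type pools, with the keratin gene *cyt1* passing. A sum of this kind follows its abundant keratins: at an unadjusted p under 0.05, 5 of the 12 epidermis markers were higher and 5 lower. Neutrophil markers summed to 89.8 to 113 FPKM in mutant pools and 65.4 to 84.3 FPKM in wild-type pools, with *mmp9* passing, an inducible metalloproteinase gene. Of the 10 tested, 4 were higher and 0 lower at that p, against 9.88% and 6.4% of all genes tested. In the same list *mpx* and *lyz* overlapped between genotypes, at log2 fold changes of 0.19 and -0.04. The sum is not a cell count, and the study itself counted fewer neutrophils in mutant larvae at 5 dpf. Of the marker genes that passed, *ela3l* and *amy2a* missed the threshold with any 1 pool left out, and *cyt1*, *mmp9* and *apobb.1* passed only where that pool was wild-type pool 2. Sums of intestine, neuron and red blood cell markers overlapped, at 1200 to 1250, 866 to 925 and 1200 to 1250 FPKM in mutant pools and 1050 to 1290, 814 to 938 and 1120 to 1410 FPKM in wild-type pools. Whether the make-up of the larvae bears on the β-oxidation genes was not tested.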

How the data were processed

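RNA was taken from whole larvae at 5 dpf. Per the labels and methods, Trim Galore 0.4.2 trimmed the reads, STAR 2.5.3 placed them on GRCz11, and the authors deposited FPKM per gene and pool from Cufflinks 2.2.1. No source used here states the library scaling or strand setting. The authors' own means, fold changes and p-values were not used. Column names show genotype but not the labelled sample, so columns were replicates without a pairing of their own.

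Genes averaging 0.5 FPKM or more were fitted as log2(FPKM + 1) in limma 3.58.1 (R 4.3.3), with a mean-variance trend and no covariate. The count-based Cuffdiff test of the study cannot be run on FPKM. Scripts were checked on simulated data. Low depth makes low genes least precise. Any 2 pools shared a value in at most 0.0603% of well-expressed genes. Also tried were leaving out each pool, the column number as a block, quantile or median scaling, a fit with no trend, a 5 FPKM filter, no filter, and 0.1 as pseudocount.

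All 31 members are named. Pool values are given for those at an unadjusted p under 0.05, with separated pools, or most abundant in their role. Related lists name genes that passed, or up to 2 with the smallest p. A few more genes of these and of the marker lists were named after the values were seen. Members and lists were chosen with earlier results of these data known, and 1 symbol that had matched an unrelated gene was dropped from a related list. Symbols were matched with a RefSeq gene table. Sequences were not analysed here, and 1 gene of a related list is not reported here. Figures used Python 3.11.15, pandas 2.3.3 and matplotlib 3.10.9.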

Additional observations from a re-analysis of the deposited data

How the results depend on the processing

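Among the β-oxidation genes 0 passed in every setting tried, except that 1, *cpt2*, passed without wild-type pool 2, so the number that passed with any 1 pool left out ran from 0 to 1. The smallest adjusted p was that of *eci2* with a filter of 5 FPKM (0.0519 from limma), apart from *cpt2* without that pool. The median log2 fold change of the list was 0.1 with quantile scaling and 0.11 to 0.18 with any 1 pool left out. The number of separated genes was 11 to 16 over the settings tried. The 16 came without wild-type pool 2, where 20.7% of all genes were separated higher and 17.5% lower, and *cpt1aa* was the gene lost under either scaling. Of the 30 genes 21 kept their sign in every setting. The log2 fold change of *acat1* was -0.003 with quantile scaling. With any 1 pool left out it ran from -0.04 to 0.14 for *acat1*, -0.14 to 0.01 for *crata*, -0.03 to 0.24 for *acads* and for *decr1*, -0.08 to 0.2 for *acad11*, -0.04 to 0.15 for *echs1*, -0.14 to 0.09 for *eci1*, -0.1 to 0.14 for *decr2* and -0.18 to 0.01 for *ehhadh*. Over all genes, 87 passed without a filter, 38 without the trend, 15 to 422 with any 1 pool left out (422 without wild-type pool 2) and 353 with the column number as a replicate block, where 0 β-oxidation genes passed. Same-numbered pools did not deviate together (correlations of 0.00389 to 0.054), so the numbers were not taken as a pairing. The causes were not tested. The mean of 0.386 FPKM left *acadsb* untested.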
